A study of Capsicum annuum and Capsicum annuum
Solanum lycopersicum with 48 samples.

Results

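The genes described here are 170 tomato genes whose transcript level in self-grafted tomato climbed in 2 steps, between 1 and 3 and again between 3 and 5 days after grafting (DAG). They were chosen from 33604 tomato genes by 4 conditions on the self-graft values. The level at 5 DAG had to be 5 FPKM or more (fragments scaled for transcript length and library size), each step had to be 1.5-fold or more, and the level at 5 DAG had to be 4-fold or more that at 1 DAG, with 1 FPKM added to every value. All changes below are on this scale of FPKM + 1 unless plain FPKM is named. Of the 170 rows, 164 name 1 gene and 6 name several genes that were quantified together.

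The genes were then followed in the tomato part of both heterografts, in which the rule was not applied. These were a pepper scion on a tomato stock (pepper:tomato), a tomato scion on a pepper stock (tomato:pepper) and, as the reference, the tomato self-graft, each sampled at 1, 3 and 5 DAG. Tomato was var. M82 and pepper was var. Big Dipper, with no other treatment or genotype. Stem tissue from both sides of the cut was taken, so each self-graft sample holds tomato scion and tomato stock, a pepper:tomato sample holds tomato tissue of the stock, and a tomato:pepper sample holds tomato tissue of the scion. Plants stood in the dark for 3 days and were returned to light on day 4, so the 5 DAG samples differ from the others in light as well as in time, and these cannot be told apart. The tables give 1 FPKM value per group, made by the authors from 4 libraries, each of 1 junction. The tables hold no values of single libraries, so no spread between libraries is given for any value below, no test was made, and the changes are those of 1 value against another. The authors' own fold changes and q values in the tables were not used.

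A cut stem heals as a graft when cells at the cut surfaces divide into callus, adhere across the cut, and form new xylem and phloem that join scion and stock. Tomato and pepper are known as incompatible partners, whereas tomato grafted to itself heals. Transcription factors of the ERF (ethylene response factor) family and enzymes that remodel the cell wall are known to be active in wounded and healing stems. Of the 170 genes, 3 have a name in the study, and these are an ERF that responds to jasmonate (JRE4), a further ERF (ERF4) and a xyloglucan endotransglucosylase/hydrolase (XTH), an enzyme that cuts and rejoins the xyloglucan of the wall. The other 167 are given by their identifiers, because no gene description was available for them here, so that gene lists by function and a check of the tissue by marker genes could not be made.

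Tomato genes made up 17.9%, 51.7% and 23.1% of the summed FPKM of pepper:tomato at 1, 3 and 5 DAG, and 59.5%, 29.7% and 49.2% of that of tomato:pepper. At 3 DAG the larger and the smaller share thus stood in the opposite graft from the days before and after. The labels at 3 DAG were kept as given, and the counts of genes that changed to or from 3 DAG are given, on the deposited scale, both as labelled and after an exchange of these groups between the heterografts (3 DAG exchanged). For a single gene, values are given as labelled, and the exchange swaps the middle value of its heterograft series. Comparisons of 5 with 1 DAG do not use these groups. Whether the labels of 1 and 5 DAG, rather than those of 3 DAG, were exchanged was not tested. An exchange on both of those days would swap the names of the heterografts in these comparisons. Samples of the tomato self-graft carry pepper as their organism in the labels, which was set aside in favour of their titles and treatments. The self-graft and heterograft tables were scaled separately, so levels stand side by side across them as values, and the comparisons are of changes within a graft or of levels within the heterograft table. In bulk tissue, fewer cells of a type and less RNA per cell cannot be told apart.

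Within the tomato self-graft, where these values chose the genes, the median level of the 170 genes was 0.986 FPKM at 1 DAG, 6.54 FPKM at 3 DAG and 23.2 FPKM at 5 DAG. At 1 DAG, 85 of them were under 1 FPKM and 13 were listed at 0, and at 5 DAG 133 reached 10 FPKM and 29 reached 100 FPKM. Many of the genes were thus at low levels just after the cut and moderately or strongly expressed on the last day. Their summed FPKM was 0.141% of the tomato total at 1 DAG, 0.331% at 3 DAG and 1.42% at 5 DAG. The change between 1 and 5 DAG was 10-fold or more in 75 genes and 100-fold or more in 6. Genes that met the rule were 0.882% of the 19271 tomato genes with 1 FPKM or more in at least 1 self-graft group, a share that only restates the rule.

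The median gene had steps of similar size. At 3 DAG the genes had covered a median of 48.9% of their log2 change between 1 and 5 DAG, with a range of 14.7 to 85.8%. Between 25 and 50% of the change had been covered by 79 genes and between 50 and 75% by 67, while 12 genes had covered less than 25% and 12 had covered 75% or more. The second step was the larger in 91 of the 170.

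Several genes lay close to a limit of the rule. At the limit of 5 FPKM, Solyc07g006380 with 5.26 FPKM and Solyc05g056450 with 5.48 FPKM were inside, and Solyc09g082695 with 4.997 FPKM lay just under it, followed by Solyc09g005420 with 4.90 FPKM. At the limit of 1.5-fold between 1 and 3 DAG, Solyc12g011010 (1.51-fold) was inside and Solyc06g054130 (1.4995-fold) and Solyc03g005320 (1.46-fold) were outside. At the same limit between 3 and 5 DAG, Solyc02g079700 (1.55-fold) was inside and Solyc04g054990 (1.49-fold) was outside. At the limit of 4-fold between 1 and 5 DAG, Solyc10g045240 (4.00-fold) was inside and Solyc12g057060 (3.98-fold) was outside. The step between 3 and 5 DAG was the condition missed most often as the only one, by 79 genes, against 59 for the 4-fold change, 35 for the step between 1 and 3 DAG and 12 for the level.

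The regulators came first among the named genes. JRE4 (Solyc01g090340), known in tomato as an activator of steroidal glycoalkaloid synthesis, a defence pathway, had 0.645, 0.132 and 26.5 FPKM in the samples labelled pepper:tomato at 1, 3 and 5 DAG, 0.628, 16.7 and 14.0 FPKM in those labelled tomato:pepper, and 0.3995, 8.84 and 23.3 FPKM in the tomato self-graft. It was under 1 FPKM in every graft at 1 DAG and above 10 FPKM in every graft at 5 DAG. Its log2 change between 1 and 5 DAG came to 4.06 in pepper:tomato, 3.204 in tomato:pepper and 4.12 in the self-graft. After the exchange, JRE4 had 16.7 FPKM at 3 DAG in pepper:tomato and 0.132 FPKM in tomato:pepper.

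ERF4 (Solyc01g090560), whose namesake in Arabidopsis is a transcriptional repressor, was the less abundant of these ERF genes at 5 DAG. It had 3.50, 0.260 and 11.3 FPKM in pepper:tomato at 1, 3 and 5 DAG, 0.518, 6.04 and 7.20 FPKM in tomato:pepper, and 0.906, 2.59 and 8.52 FPKM in the self-graft. The level at 5 DAG was the highest of the 3 in each graft as labelled, and the log2 change between 1 and 5 DAG came to 1.45 in pepper:tomato, 2.43 in tomato:pepper and 2.32 in the self-graft.

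XTH (Solyc07g052980) was already abundant at 1 DAG. It had 54.2, 21.3 and 81.9 FPKM in pepper:tomato, 33.4, 150.2 and 73.9 FPKM in tomato:pepper, and 39.5, 115 and 187 FPKM in the self-graft. In this gene the change in the heterografts was smaller than in the self-graft, with a log2 change between 1 and 5 DAG of 0.59 in pepper:tomato, 1.13 in tomato:pepper and 2.22 in the self-graft. The change in pepper:tomato did not reach 2-fold. The study's network predicted this gene as a target of the homeobox gene THOM1. A further XTH gene, Solyc11g065600, which the study predicted as a target of JRE4 and ERF4, was not a member. Solyc11g065600 had 0.178, 0.197 and 0.938 FPKM in pepper:tomato, 0.103, 2.30 and 0.276 FPKM in tomato:pepper, and 0.347, 0.709 and 1.71 FPKM in the self-graft.

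**Figure D1:**
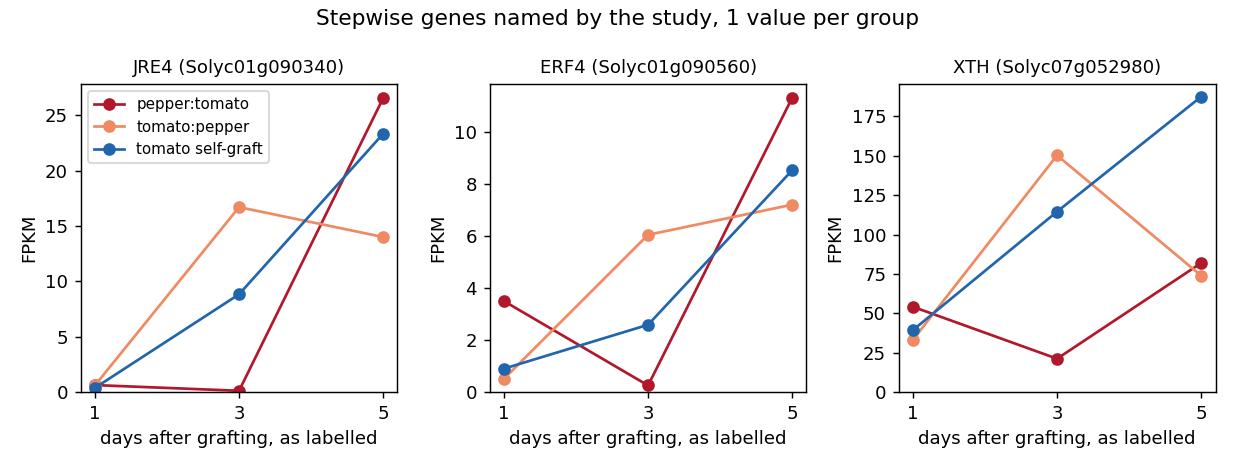
FPKM (vertical axis, linear, starting at 0) of JRE4, ERF4 and XTH at 1, 3 and 5 days after grafting as labelled (horizontal axis), with 1 point per group for pepper:tomato (dark red), tomato:pepper (orange) and the tomato self-graft (blue). JRE4 ends above 10 FPKM in all 3 grafts, whereas XTH ends at 81.9 and 73.9 FPKM in the heterografts, under the 187 FPKM of the self-graft, and all 3 genes are lowest at 3 DAG in pepper:tomato.

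The study names 56 tomato genes of vascular, wound and hormone pathways, and the 3 above were the members among them. In the self-graft 10 of the 56 were 2-fold or more higher at 5 than at 1 DAG and 8 were 2-fold or more lower, beside 6.64% and 5.80% of all 19271 genes. In pepper:tomato 5 were higher and 3 lower, beside 10.8% and 4.34% of its tomato genes, and in tomato:pepper 6 were higher and 9 lower, beside 5.00% and 11.6%. The study chose some of these genes as orthologs of vascular genes and others from its networks of the same samples, and the count of the network genes is no independent evidence of a direction. NST1 (Solyc10g005010), in Arabidopsis an activator of secondary wall formation, met both steps but not the 4-fold limit. It had 0.197, 0.864 and 7.50 FPKM in pepper:tomato, 0.954, 5.53 and 6.25 FPKM in tomato:pepper, and 0.911, 2.90 and 5.51 FPKM in the self-graft, so that it stood highest at 5 DAG in every graft. THOM1 (Solyc01g090460), a homeobox gene, met the first step but not the others, with 0.475, 0.508 and 1.70 FPKM in pepper:tomato, 0.872, 2.87 and 0.803 FPKM in tomato:pepper, and 0.482, 2.89 and 4.04 FPKM in the self-graft.

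At 5 DAG the highest of the 170 genes in the self-graft was Solyc12g044950. It had 11.2, 666 and 243 FPKM in pepper:tomato at 1, 3 and 5 DAG, 429, 391 and 1227 FPKM in tomato:pepper, and 241, 536 and 1047 FPKM in the self-graft. Exchanged, it read 11.2, 391 and 243 FPKM in pepper:tomato and 429, 666 and 1227 FPKM in tomato:pepper, so that it stood higher on each later day in tomato:pepper only after the exchange. Solyc02g080530 had 32.8, 53.1 and 537 FPKM in pepper:tomato, 50.1, 616 and 448 FPKM in tomato:pepper, and 73.5, 415 and 778 FPKM in the self-graft. Solyc04g007790 had 36.0, 136 and 388 FPKM in pepper:tomato, 114, 251 and 362 FPKM in tomato:pepper, and 92.8, 304 and 675 FPKM in the self-graft, an increase at each time point in all 3 grafts as labelled. Solyc08g082190 had 3.43, 219 and 298 FPKM in pepper:tomato, 78.9, 643 and 313 FPKM in tomato:pepper, and 71.5, 383 and 637 FPKM in the self-graft. These 4 genes were at 70 FPKM or more at 1 DAG in the self-graft and were thus present before the climb. Solyc02g078890 was lower at the start, with 16.2, 39.9 and 129 FPKM in pepper:tomato, 50.3, 317 and 194 FPKM in tomato:pepper, and 21.9, 70.6 and 412 FPKM in the self-graft.

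Other genes were at or close to 0 at 1 DAG in every graft and abundant at 5 DAG. Solyc07g066360 was listed at 0 at 1 and 3 DAG and had 237 FPKM at 5 DAG in pepper:tomato, had 0, 51.1 and 74.1 FPKM in tomato:pepper, and had 0.235, 83.3 and 402 FPKM in the self-graft. Solyc05g046180 had 0, 0 and 262 FPKM in pepper:tomato, 0, 12.8 and 91.4 FPKM in tomato:pepper, and 0.301, 28.8 and 268 FPKM in the self-graft. Solyc07g017980 had 0, 0 and 146 FPKM in pepper:tomato, 0, 18.1 and 46.5 FPKM in tomato:pepper, and 0, 24.8 and 134 FPKM in the self-graft. All of these were listed at 0 in both heterografts at 1 DAG and, as labelled, also at 3 DAG in pepper:tomato. Solyc04g007760, the gene with the largest change in the self-graft, was already present at 1 DAG in the heterografts. It had 8.43, 2.92 and 1033 FPKM in pepper:tomato, 1.05, 216 and 89.9 FPKM in tomato:pepper, and 0.0745, 58.0 and 448 FPKM in the self-graft. It reached the highest level of the 170 genes at 5 DAG in pepper:tomato.

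In 3 further genes with large changes in the self-graft, the order of the later days differed between the heterografts. Solyc07g005630 had 0, 27.1 and 3.84 FPKM in pepper:tomato, 0.539, 0.497 and 36.3 FPKM in tomato:pepper, and 0.192, 4.38 and 63.0 FPKM in the self-graft. Solyc07g009230 had 0.0701, 68.7 and 12.9 FPKM in pepper:tomato, 2.50, 4.63 and 88.3 FPKM in tomato:pepper, and 2.83, 54.4 and 176 FPKM in the self-graft. As labelled, both peaked at 3 DAG in pepper:tomato. With 3 DAG exchanged, Solyc07g005630 read 0, 0.497 and 3.84 FPKM in pepper:tomato and 0.539, 27.1 and 36.3 FPKM in tomato:pepper, and Solyc07g009230 read 0.0701, 4.63 and 12.9 FPKM in pepper:tomato and 2.50, 68.7 and 88.3 FPKM in tomato:pepper, a climb in every case. Solyc04g014350 showed the opposite order, with 0, 3.62 and 442 FPKM in pepper:tomato, 5.96, 257 and 79.97 FPKM in tomato:pepper, and 5.23, 180 and 400 FPKM in the self-graft. After the exchange it read 0, 257 and 442 FPKM in pepper:tomato and 5.96, 3.62 and 79.97 FPKM in tomato:pepper.

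The 170 genes were spread over all 12 chromosomes, with 1 gene not placed on any. They were 170 of 13126 tomato genes with 5 FPKM or more at 5 DAG in the self-graft. By chromosome number in the identifier, chromosome 7 held 22 of them, 2.25% of its 979 such genes. Of these 22, 8 lay in the 1 stretch described below. Chromosome 9 held 17, 1.75% of 970, chromosome 12 held 14, 1.63% of 858, and chromosome 5 held 6, 0.664% of 903. On the other chromosomes the share lay between 0.889% and 1.43%. Counting rows next to each other in the table, 17 members (10%) stood beside another member, in 6 groups, and 140 (1.08%) of the 12956 other genes at 5 FPKM or more stood beside a member. The table breaks off the order of identifiers within chromosomes, and in the order of the identifiers the count was 23 members (13.5%) in 10 groups.

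The longest group was a stretch of chromosome 7, between Solyc07g043390 and Solyc07g043500, in which 8 of 13 rows were members. The other 5 were at or under 0.01 FPKM at every self-graft time point, so that every gene of this stretch above that level in the self-graft belonged to the set. In table order 7 of the 8 followed each other, and Solyc07g043400 stood elsewhere. All 8 were 2-fold or more higher at 5 than at 1 DAG in each heterograft. Whether neighbouring genes share reads through similar sequence was not tested.

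Within the stretch Solyc07g043420 was the most abundant gene in the self-graft. It had 9.22, 9.52 and 454 FPKM in pepper:tomato at 1, 3 and 5 DAG, 7.44, 134 and 183 FPKM in tomato:pepper, and 20.5, 79.8 and 471 FPKM in the self-graft. Solyc07g043400 had 2.53, 0 and 770.1 FPKM in pepper:tomato, 0, 106 and 191 FPKM in tomato:pepper, and 0.250, 7.20 and 159 FPKM in the self-graft, and in pepper:tomato it stood above Solyc07g043420 at 5 DAG. Solyc07g043395 had 0.369, 0.195 and 265 FPKM in pepper:tomato, 0.0966, 46.2 and 49.9 FPKM in tomato:pepper, and 0.330, 10.5 and 136 FPKM in the self-graft. All 3 were thus far higher at 5 than at 1 DAG in every graft. Solyc07g043390 had 0.139, 0.0146 and 82.2 FPKM in pepper:tomato, 0, 11.1 and 10.3 FPKM in tomato:pepper, and 0.0928, 3.11 and 68.1 FPKM in the self-graft. Solyc07g043480 had 4.95, 0.940 and 57.4 FPKM in pepper:tomato, 5.40, 42.7 and 36.5 FPKM in tomato:pepper, and 5.14, 15.3 and 60.0 FPKM in the self-graft. Solyc07g043460, Solyc07g043490 and Solyc07g043500 had between 32.4 and 60.4 FPKM at 5 DAG in pepper:tomato, between 10.3 and 39.2 FPKM in tomato:pepper, and between 22.1 and 36.6 FPKM in the self-graft.

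Summed over the 8 genes, FPKM was 33.5, 11.5 and 1771 at 1, 3 and 5 DAG in pepper:tomato, 15.4, 372 and 539 for tomato:pepper, and 30.7, 128 and 976 for the self-graft. As labelled, 7 of the 8 were lower at 3 than at 1 DAG in pepper:tomato and none was in tomato:pepper. Exchanged, 0 of the 8 were lower at 3 than at 1 DAG in pepper:tomato and 4 were in tomato:pepper, and the sums were 33.5, 372 and 1771 in pepper:tomato and 15.4, 11.5 and 539 in tomato:pepper.

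**Figure D2:**
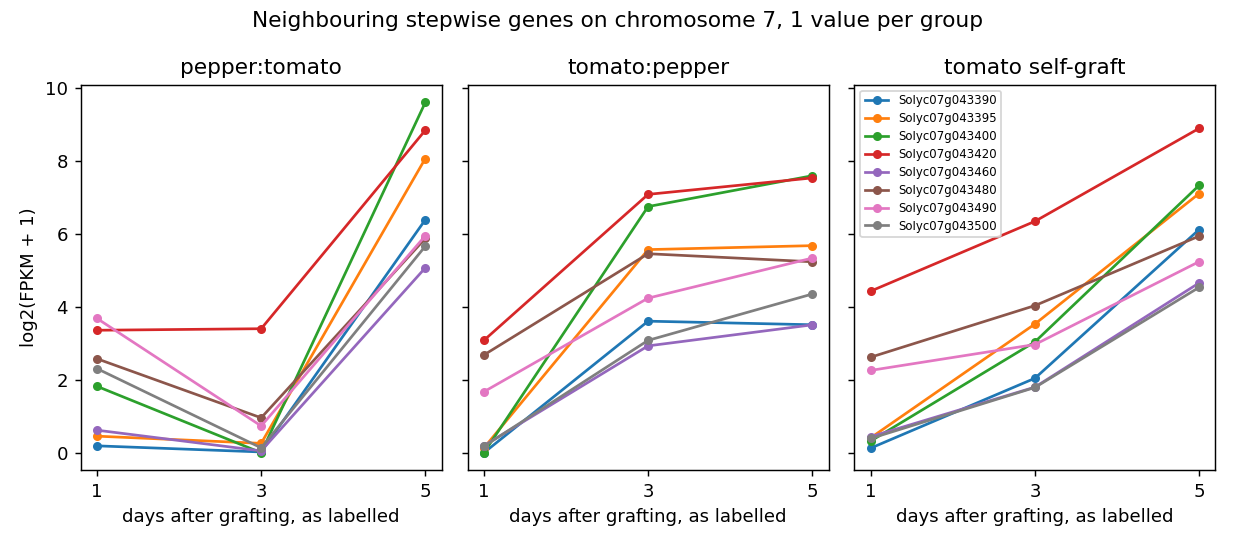
Level as log2(FPKM + 1) (vertical axis) of the 8 stepwise genes between Solyc07g043390 and Solyc07g043500 at 1, 3 and 5 days after grafting as labelled (horizontal axis), 1 line per gene, in pepper:tomato, tomato:pepper and the tomato self-graft. All 8 lines end above their start in all 3 grafts, and in pepper:tomato 7 of the 8 dip at 3 DAG.

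Smaller groups of neighbours were found on other chromosomes. Solyc01g006400 had 3.32, 7.61 and 487 FPKM in pepper:tomato, 7.71, 192 and 50.1 FPKM in tomato:pepper, and 11.4, 143 and 402 FPKM in the self-graft. Its neighbour Solyc01g006390 had 0.0222, 0.0619 and 70.1 FPKM in pepper:tomato, 0.0888, 4.90 and 0.994 FPKM in tomato:pepper, and 0, 2.06 and 15.3 FPKM in the self-graft. In tomato:pepper at 5 DAG both stood lower than in pepper:tomato, and Solyc01g006390 did not reach 2-fold over 1 DAG there. On chromosome 2, Solyc02g077420 had 7.21, 1.77 and 142 FPKM in pepper:tomato, 1.13, 71.0 and 34.7 FPKM in tomato:pepper, and 6.31, 19.7 and 103 FPKM in the self-graft, and Solyc02g077430 had 2.94, 7.63 and 109 FPKM in pepper:tomato, 6.02, 56.2 and 40.8 FPKM in tomato:pepper, and 14.4, 24.0 and 90.3 FPKM in the self-graft. On chromosome 9, Solyc09g065420, Solyc09g065430 and Solyc09g065440 had 4.37, 11.4 and 4.36 FPKM at 5 DAG in pepper:tomato, 1.30, 1.66 and 1.51 FPKM in tomato:pepper, and 11.7, 40.5 and 7.43 FPKM in the self-graft, and all 3 were listed at 0 at 1 DAG in both heterografts. On chromosome 3, Solyc03g113580 had 0.127, 29.6 and 9.37 FPKM in pepper:tomato, 2.00, 14.2 and 18.6 FPKM in tomato:pepper, and 1.51, 17.3 and 37.8 FPKM in the self-graft, and its neighbour Solyc03g113570 had 0, 4.52 and 1.30 FPKM in pepper:tomato, 0.129, 1.07 and 3.62 FPKM in tomato:pepper, and 0.156, 1.92 and 5.82 FPKM in the self-graft. On chromosome 12, Solyc12g096770 and Solyc12g096780 had 27.4 and 3.67 FPKM at 5 DAG in pepper:tomato, 9.22 and 0.518 FPKM in tomato:pepper, and 21.0 and 10.7 FPKM in the self-graft. Neighbours in identifier order alone included Solyc12g006470, with 0.0798, 0.0848 and 5.86 FPKM in pepper:tomato, 0.195, 1.27 and 1.496 FPKM in tomato:pepper, and 9.54, 19.8 and 121 FPKM in the self-graft, and its neighbour Solyc12g006460, with 0.359, 0.0132 and 13.8 FPKM in pepper:tomato, 0.0247, 2.494 and 2.485 FPKM in tomato:pepper, and 0.876, 2.70 and 14.7 FPKM in the self-graft. The change at 5 over 1 DAG was 2-fold or more in both genes in every graft.

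Most of the genes were also higher at 5 than at 1 DAG in the heterografts, in which the rule had not been used. In pepper:tomato 145 of the 170 (85.3%) were 2-fold or more higher at 5 DAG, beside 10.8% of the 17990 tomato genes with 1 FPKM or more in at least 1 of its groups, and 2 were 2-fold or more lower, beside 4.34%. The median log2 change of the 170 was 2.99, with quartiles of 1.81 and 4.06, beside 0.09 for all of those tomato genes. In tomato:pepper 135 of the 170 (79.4%) were 2-fold or more higher, beside 5.00% of 17846 tomato genes, and 6 were 2-fold or more lower, beside 11.6%. The median there was 2.01, with quartiles of 1.21 and 2.78, beside -0.27 for all of those tomato genes. A change of 4-fold or more, the limit of the rule, was reached by 121 members in pepper:tomato, beside 2.86% of genes, and by 88 in tomato:pepper, beside 1.31%. In each heterograft 162 of the 170 reached 1 FPKM in at least 1 group, and the 8 that did not are counted among those that did not reach 2-fold.

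Tomato genes of the heterografts share a scale with pepper genes, so the values were also rescaled to the tomato total of each group. This moved the median log2 change of all tomato genes between 1 and 5 DAG to -0.23 in pepper:tomato and to 0.23 in tomato:pepper. The members' counts at 2-fold or more higher were then 142 in pepper:tomato, beside 8.65% of genes, and 141 in tomato:pepper, beside 9.58%.

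The heterografts shared most of these genes. Of the 170, 124 (72.9%) were 2-fold or more higher at 5 DAG in both, beside 2.97% of the 18661 tomato genes with 1 FPKM or more in either heterograft, and 67 were 4-fold or more higher in both, beside 0.836%. Another 21 reached 2-fold in pepper:tomato alone, beside 7.45%, 11 in tomato:pepper alone, beside 1.81%, and 14 in neither, beside 87.8%. Opposite changes of 2-fold or more in the heterografts were seen for 3 members, beside 0.622%. Across the 170 genes, which are not replicates and share the libraries of each group, the log2 change between 1 and 5 DAG in pepper:tomato correlated with that in tomato:pepper at Spearman's rho of 0.35 and Pearson's r of 0.41.

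As deposited, the size of the change differed from that of the self-graft in both directions in pepper:tomato and was mostly smaller in tomato:pepper. The members' log2 change minus that in the self-graft had a median of -0.31 in pepper:tomato. In tomato:pepper this median was -1.20. The change was larger than in the self-graft for 69 members in pepper:tomato and for 26 in tomato:pepper. It was smaller than in the self-graft by 1 or more on the log2 scale for 54 members in pepper:tomato and for 102 in tomato:pepper, and larger by 1 or more for 29 in pepper:tomato and for 4 in tomato:pepper. Since self-graft values chose the genes, a smaller change elsewhere is partly set by the choice.

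**Figure D3:**
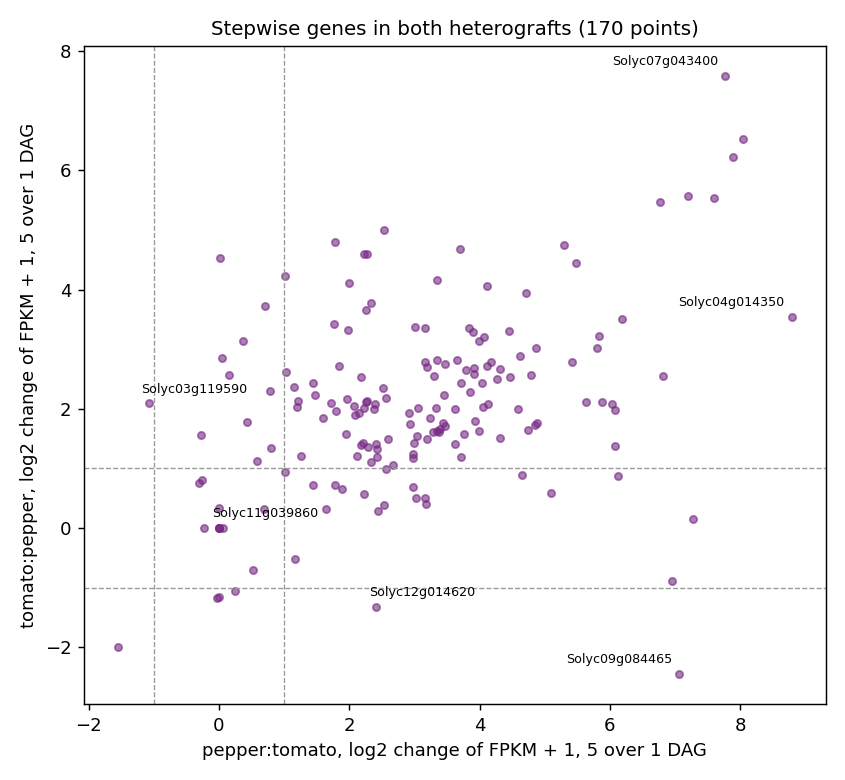
Log2 change of FPKM + 1 between 1 and 5 days after grafting in pepper:tomato (horizontal axis) and in tomato:pepper (vertical axis) for the 170 stepwise genes, 1 point per gene, with dashed lines at a 2-fold change in either direction. Most points, 124 of 170, lie to the upper right of both 2-fold lines. Solyc09g084465, a row that names 4 genes quantified together, lies far to the lower right. Solyc11g039860, listed at 0 in both heterografts, lies at the origin.

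At 5 DAG, though not at 3 DAG as labelled, the level of the genes was higher in pepper:tomato, where tomato was the stock, than in tomato:pepper, where it was the scion. As deposited, 77 members were 2-fold or more higher in pepper:tomato, beside 2.51% of 17317 tomato genes, and 22 were 2-fold or more lower, beside 24.5%. The members' median log2 ratio was 0.82, beside -0.60 for all of those genes. Rescaled to the tomato total, 113 members were higher in pepper:tomato, beside 11.5%, and 12 were lower, beside 4.77%, with a median of 1.71 beside 0.22. At 1 DAG the members' median log2 ratio was 0.00 as deposited, beside -0.99, and 0.22 rescaled, beside 0.67, with 55 members higher in pepper:tomato, beside 34.4%, and 18 lower, beside 7.02%, after rescaling. The order was the opposite at 3 DAG as labelled. As deposited, 17 members were higher in pepper:tomato, beside 20.3%, and 108 lower, beside 10.6%, with a median of -1.82 beside 0.46. Rescaled, 6 were higher, beside 7.02%, and 122 lower, beside 17.7%, with a median of -2.20 beside -0.20. An exchange of the 3 DAG groups would turn this order round.

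As a share of the tomato total, the members' summed FPKM was 0.336%, 0.269% and 3.98% at 1, 3 and 5 DAG in pepper:tomato, 0.159%, 1.68% and 1.13% for tomato:pepper, and 0.141%, 0.331% and 1.42% in the self-graft. In tomato:pepper at 3 DAG as labelled, Solyc07g056640 alone held 29.1% of the members' sum. This gene, singled out after its values were seen, had 135, 180 and 601 FPKM in pepper:tomato, 28.6, 2520 and 112 FPKM in tomato:pepper, and 55.3, 156 and 330.2 FPKM in the self-graft. Without the highest member of each group the shares were 0.274%, 0.194% and 3.61% in pepper:tomato, 0.107%, 1.19% and 0.906% for tomato:pepper, and 0.113%, 0.292% and 1.30% in the self-graft.

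**Figure D4:**
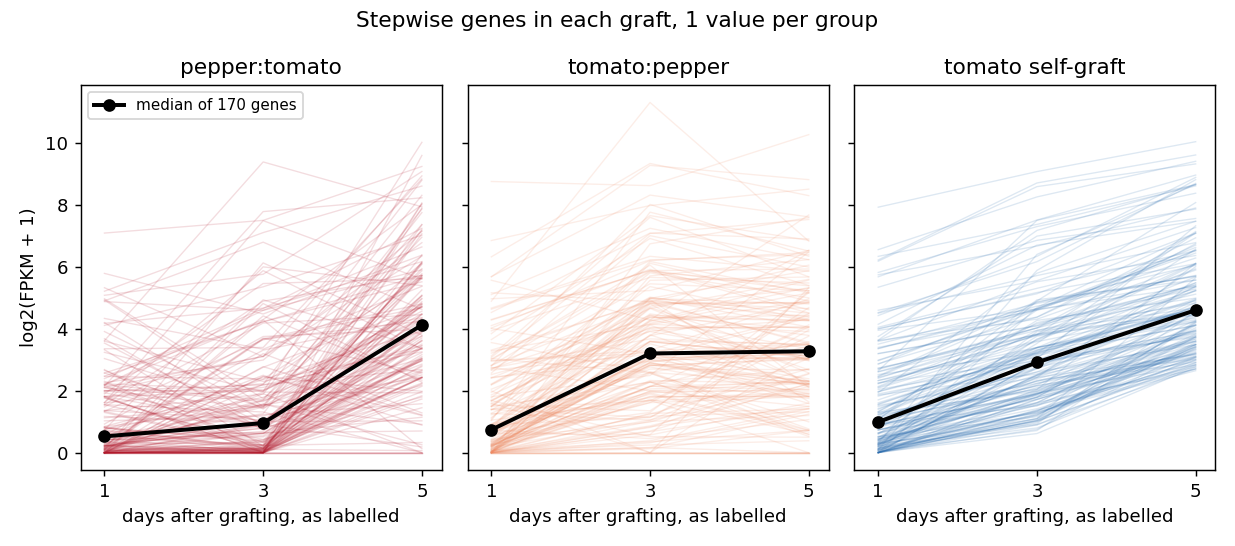
Level as log2(FPKM + 1) (vertical axis) of the 170 stepwise genes at 1, 3 and 5 days after grafting as labelled (horizontal axis), 1 thin line per gene and the median in black, in pepper:tomato, tomato:pepper and the tomato self-graft. The medians in FPKM are 0.440, 0.941 and 16.4 in pepper:tomato, 0.672, 8.20 and 8.68 for tomato:pepper, and 0.986, 6.54 and 23.2 in the self-graft, so that the climb comes after 3 DAG in pepper:tomato and before it in tomato:pepper as labelled.

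The timing of the change within the heterografts depended on the labels at 3 DAG. As labelled, 46 of the 170 genes (27.1%) were 2-fold or more higher at 3 than at 1 DAG in pepper:tomato, beside 42.8% of all its tomato genes, and 26 were 2-fold or more lower, beside 7.39%. In tomato:pepper 119 (70.0%) were 2-fold or more higher, beside 6.12%, and 4 were lower, beside 19.4%. Between 3 and 5 DAG, 130 (76.5%) were 2-fold or more higher in pepper:tomato, beside 9.67%, and 17 were lower, beside 39.1%. In tomato:pepper 34 (20%) were higher, beside 6.25%, and 36 were lower, beside 3.48%. As labelled, most of the members' increase thus lay after 3 DAG in pepper:tomato and before it in tomato:pepper. After rescaling to the tomato total, the median log2 change of all tomato genes in pepper:tomato was -0.83 between 1 and 3 DAG, in place of 0.77 as deposited, and 0.63 between 3 and 5 DAG, in place of -0.68. On this scale 27 members (15.9%) were higher and 54 lower between 1 and 3 DAG, beside 8.00% and 43.5%. The members' share that was higher thus lay above that of all tomato genes, and below it as deposited. Between 3 and 5 DAG 142 (83.5%) were higher and 3 lower, beside 33.9% and 7.50%. In tomato:pepper, rescaled, 128 (75.3%) were higher and 2 lower between 1 and 3 DAG, beside 10.7% and 6.60%. Between 3 and 5 DAG 29 (17.1%) were higher and 40 lower there, beside 5.27% and 4.15%.

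With 3 DAG exchanged the order turned round. In pepper:tomato 129 members (75.9%) were then 2-fold or more higher at 3 than at 1 DAG, beside 27.5% of genes, and 1 was lower, beside 4.38%. Between 3 and 5 DAG 61 (35.9%) were 2-fold or more higher, beside 2.37%, and 11 were lower, beside 15.7%. In tomato:pepper 26 (15.3%) were higher at 3 than at 1 DAG, beside 3.20%, and 17 were lower, beside 7.22%. Between 3 and 5 DAG 115 (67.6%) were higher, beside 9.09%, and 3 were lower, beside 12.6%. Under the exchange most members were thus 2-fold or more higher at 3 than at 1 DAG in pepper:tomato. A minority there was 2-fold or more higher again after 3 DAG, though a larger share than of all tomato genes. The climb in tomato:pepper lay mainly after 3 DAG. The 5 DAG level was the highest of the 3 days for 111 members in pepper:tomato, beside 18.1% of genes, and for 143 in tomato:pepper, beside 25.3%, after the exchange. As labelled, it was the highest for 139 in pepper:tomato, beside 18.0%, and for 80 in tomato:pepper, beside 24.1%.

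**Figure D5:**
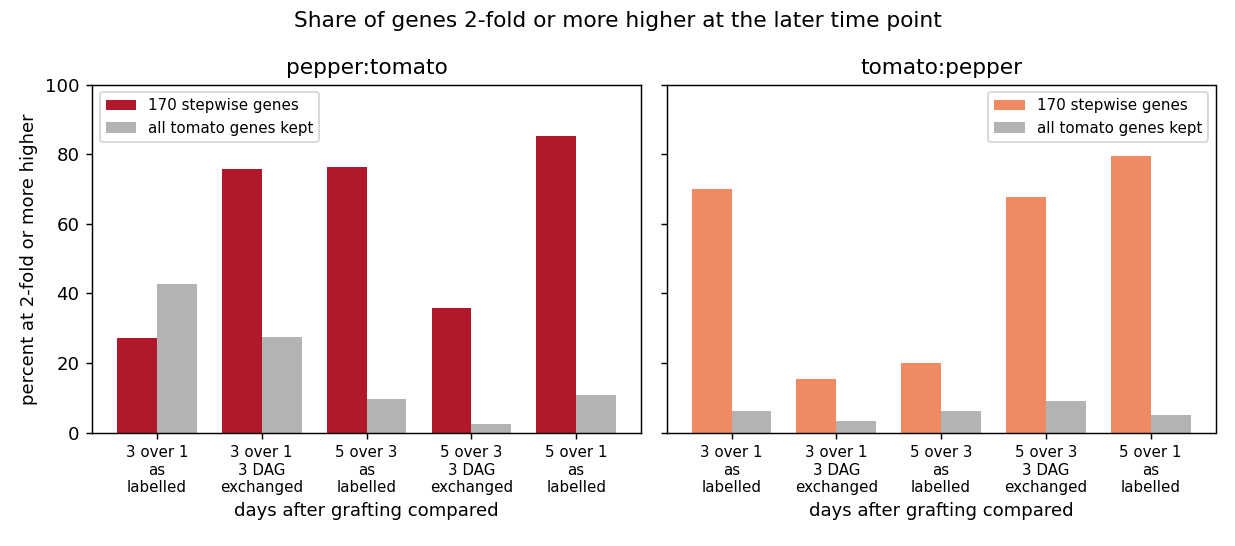
Percent of genes (vertical axis, starting at 0) that were 2-fold or more higher at the later of the time points compared (horizontal axis, in days after grafting), for the 170 stepwise genes (coloured bars) and for all tomato genes with 1 FPKM or more in at least 1 group (grey bars), in each heterograft, as labelled and with 3 DAG exchanged between the heterografts. The bars for 5 over 1 DAG, which do not use 3 DAG, stand at 85.3% and 79.4%, beside 10.8% and 5.00%.

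A minority of members met the full rule again in a heterograft. As labelled, 29 of the 170 met it in pepper:tomato, beside 0.717% of its tomato genes, 16 in tomato:pepper, beside 0.275%, and 4 in both. These made up 22.5% of the 129 tomato genes that met it in pepper:tomato and 32.7% of the 49 in tomato:pepper. With 3 DAG exchanged, 70 members met it in pepper:tomato, beside 0.837%, 14 in tomato:pepper, beside 0.236%, and 5 in both. Solyc01g102900, Solyc02g079700 and Solyc10g085880 met it in both heterografts under either reading. As labelled, Solyc02g079700 had 0, 5.76 and 25.1 FPKM in pepper:tomato, 0.881, 12.7 and 27.9 FPKM in tomato:pepper, and 3.33, 12.9 and 20.6 FPKM in the self-graft. Solyc01g102900 had 0, 0.836 and 18.9 FPKM in pepper:tomato, 0.0264, 1.37 and 5.54 FPKM in tomato:pepper, and 0.0205, 0.963 and 18.0 FPKM in the self-graft. Solyc10g085880 had 0.675, 2.45 and 12.5 FPKM in pepper:tomato, 0.0491, 3.42 and 9.87 FPKM in tomato:pepper, and 0.189, 4.05 and 7.13 FPKM in the self-graft.

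A few members did not follow in the heterografts. Solyc11g039860, among the 10 highest at 5 DAG in the self-graft with 50.1, 181 and 496 FPKM, was listed at 0 in all 6 heterograft groups. Solyc12g027820 and Solyc12g010030, with 9.49 and 9.44 FPKM at 5 DAG in the self-graft, were also listed at 0 in all 6, and Solyc03g033410 and Solyc08g006860, with 8.19 and 9.07 FPKM, stayed under 1 FPKM in all 6. Members listed at 0 in all 6 groups were 3 of 170 (1.76%), beside 0.297% of the 13126 tomato genes with 5 FPKM or more at 5 DAG in the self-graft. Members under 1 FPKM in all 6 groups, with these 3 included, were 5 of 170 (2.94%), beside 1.33% of the same 13126 genes. The heterograft reads were aligned to the tomato and pepper genomes joined, and whether reads of these genes were lost there was not tested.

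Solyc10g085270 was lower at 5 than at 1 DAG in both heterografts, with 1.93, 1.49 and 0 FPKM in pepper:tomato, 2.98, 0 and 0 FPKM in tomato:pepper, and 0, 1.60 and 6.09 FPKM in the self-graft. Solyc09g062970, at 8.21, 16.2 and 58.4 FPKM in the self-graft, had 5.30, 0.695 and 5.33 FPKM in pepper:tomato and 6.78, 8.26 and 2.50 FPKM in tomato:pepper. Solyc07g056360 had 10.6, 0.864 and 8.39 FPKM in pepper:tomato, 5.62, 11.8 and 10.1 FPKM in tomato:pepper, and 2.63, 4.82 and 13.9 FPKM in the self-graft. Solyc04g077510 had 11.1, 3.92 and 9.15 FPKM in pepper:tomato, 4.39, 6.73 and 8.37 FPKM in tomato:pepper, and 2.72, 6.45 and 14.3 FPKM in the self-graft. In pepper:tomato both were slightly lower at 5 than at 1 DAG and, as labelled, lowest at 3 DAG. Solyc02g021290 had 28.8, 110 and 23.6 FPKM in pepper:tomato, 30.3, 36.6 and 91.3 FPKM in tomato:pepper, and 5.58, 14.4 and 27.3 FPKM in the self-graft, so its level in both heterografts was above that in the self-graft at 1 DAG, though levels of the tables were scaled separately. Solyc07g006380, the member closest to the 5 FPKM limit, had 0.284, 0.178 and 0.257 FPKM in pepper:tomato and 2.21, 0.433 and 0.415 FPKM in tomato:pepper.

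Members that the study also placed in its network for the tomato self-graft were 31 of the 170. All 31 were targets at 5 DAG, beside 98 of the 230 targets of the whole network (42.6%), and 8 of them were also targets at 3 DAG. The study chose the network genes and their time points by expression in these samples, and the 170 were chosen for a high level at 5 DAG in the same samples, so that nothing is read from this placement. Of the 31, 26 (83.9%) were 2-fold or more higher at 5 than at 1 DAG in pepper:tomato and 25 (80.6%) in tomato:pepper. Of the other 139 members, 119 (85.6%) were in pepper:tomato and 110 (79.1%) in tomato:pepper, so that the shares of both sets lay close together.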

How the data were processed

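Polyadenylated RNA of graft junctions was sequenced by the study in 48 samples, of which the 36 libraries of 9 groups (4 per group) are used here. FPKM values were deposited by the authors with 1 value per group. They were made with TuxNet at default settings (fastq-mcf, HISAT2, Cufflinks, versions not given in the sources used here) against tomato ITAG3.2 for the self-graft and against tomato and pepper CM334 joined for the heterografts. The tables also hold the authors' log2 fold changes and q values, which were not used. Counts and depth are unknown, so no interval, floor or test is given.

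Changes are ratios of FPKM + 1. Background genes had 1 FPKM or more in at least 1 of the graft's groups, and 2-fold was the limit for counts. Tomato self-graft and heterograft tables were normalized separately. The members and lists were chosen with earlier results of these data known. Genes named are those the study names, the 10 highest and 10 most changed in the self-graft, the 5 largest and 5 smallest changes per heterograft, neighbours and genes at the limits. Others were picked on their heterograft values. These are the members under 1 FPKM in all 6 heterograft groups, those that met the rule in both heterografts under either reading, and Solyc07g056640. No identifier matched a description, so lists by keyword were void. The code of the step rule was tested on simulated data. Python 3.11.15, pandas 2.3.3, numpy 2.4.6 and matplotlib 3.10.9 were used. The pepper self-graft table was not used here.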

Additional observations from a re-analysis of the deposited data

Results flagged for a closer look

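Of the 170 genes, 3 were 2-fold or more higher at 5 than at 1 DAG in 1 heterograft and 2-fold or more lower in the other, beside 0.622% of tomato genes. They were picked out because the heterografts moved in opposite directions, and with 1 value per group the difference was not tested. The row listed as Solyc09g084465 names 4 genes that were quantified together, and that of Solyc12g014620 names 2. The values of these rows thus cannot be credited to a single gene. Solyc09g084465 had 0.233, 2.26 and 164 FPKM in pepper:tomato at 1, 3 and 5 DAG, 7.21, 4.97 and 0.499 FPKM in tomato:pepper, and 1.02, 7.77 and 16.3 FPKM in the self-graft, a log2 change of 7.06 in pepper:tomato, set against -2.45 in tomato:pepper. Solyc12g014620 had 0.7997, 3.56 and 8.56 FPKM in pepper:tomato, 10.7, 5.04 and 3.70 FPKM in tomato:pepper, and 1.06, 4.65 and 11.1 FPKM in the self-graft, a log2 change of 2.41 in pepper:tomato, set against -1.32 in tomato:pepper. Solyc03g119590 went the other way, with 3.31, 1.01 and 1.04 FPKM in pepper:tomato, 0.154, 6.19 and 3.91 FPKM in tomato:pepper, and 0.260, 1.45 and 6.88 FPKM in the self-graft, a log2 change of -1.08 in pepper:tomato, set against 2.09 in tomato:pepper.

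The median log2 change of the 170 genes between 3 and 5 DAG came to 2.57 in pepper:tomato, and to 0.00 in tomato:pepper, as labelled. It came to 0.63 in pepper:tomato, and to 1.65 in tomato:pepper, with 3 DAG exchanged, and the difference between the heterografts was not tested.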

How the results depend on the processing

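Of 104 alternative values for 16 results, 72 kept within 1.5-fold of the count or 0.585 of the log2 median, and 32 moved further. The 72 include the counts without a filter, which equal the main counts by construction, because no filter was applied to the members. Of the medians of 1 or more in log2 size, 0 changed sign. A change of direction was not looked for in counts or in smaller medians. The set held 73 genes with 5 FPKM added, 93 at 20 FPKM or more at 5 DAG, 95 with steps of 2-fold and 284 with no steps asked. With 3 DAG exchanged, the counts of members at 2-fold or more were 129 (3 over 1) and 61 (5 over 3) in pepper:tomato and 26 and 115 in tomato:pepper, the medians were 2.12 and 0.63 in pepper:tomato and 0.00 and 1.65 in tomato:pepper, and 70 members met the step rule in pepper:tomato. With 0.1 FPKM added, the medians were 3.82 (5 over 3) and 4.22 (5 over 1) in pepper:tomato and 3.03 (3 over 1) and 3.16 (5 over 1) in tomato:pepper. With 5 FPKM added they were 1.36 and 1.67 in pepper:tomato and 1.10 and 1.08 in tomato:pepper, the counts were 30 (pepper:tomato, 3 over 1) and 19 (tomato:pepper, 5 over 3), and the step rule was met by 16 members in pepper:tomato and 10 in tomato:pepper. At 4-fold the counts were 28 (pepper:tomato, 3 over 1), 13 (tomato:pepper, 5 over 3) and 88 (tomato:pepper, 5 over 1). Rescaling to the tomato total gave 27 members (3 over 1) and a median of 3.61 (5 over 3) in pepper:tomato, and centring on the median of all tomato genes gave medians of -0.70 (3 over 1) and 3.26 (5 over 3) there. A smaller number added to FPKM gives larger changes for genes near 0, and beyond this the cause was not tested. No paired analysis was possible because the tables hold 1 value per group, and for the same reason no replicate could be left out. The order of identifiers, the unfiltered step rule, the level ratio between heterografts and the removal of rows that name several genes (164 genes left) were chosen after seeing the data.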
